A study of Canis lupus familiaris with 17 samples.

Results

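The dog leukocyte antigen (DLA) class I heavy chains DLA88, DLA-12, DLA-64 and DLA-79 were followed across canine soft tissue sarcomas, tumours of connective tissue, that had or had not been injected with cytokines. The genes were taken as the endogenous probes that carry exactly these 4 names on the Canine IO nCounter panel, a hybridisation assay that counts one colour-coded barcode per captured RNA molecule without amplification. They made up 4 of the 780 endogenous probes. All 4 were above background, the mean of the negative control probes plus 2 SD, in all 17 samples. All 4 therefore entered the tests among the 724 probes above background in at least 3 samples.

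Each sample was a tumour from a different pet dog, formalin-fixed and embedded in paraffin before RNA extraction. The untreated group held 7 archived tumours, of which 4 were labelled perivascular wall tumour and 3 peripheral nerve sheath tumour. The other 10 dogs had received interleukin-2 and interleukin-12, each fused to a collagen-binding protein, injected into the tumour. Of these, 3 tumours were removed 2 days after 1 dose (2 peripheral nerve sheath tumours and 1 myxosarcoma) and 3 were removed 8 days after 1 dose (2 of the nerve sheath type and 1 of the perivascular wall type). In 4 dogs a second dose followed on day 6 and the tumour was removed on day 8, which is 2 days after the last dose (3 peripheral nerve sheath tumours and 1 fibrosarcoma). No dog gave tissue both before and after injection, and only the untreated tumours were archived tissue, so archiving and treatment cannot be told apart in any comparison with them.

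A class I molecule is a heavy chain held together with beta-2-microglobulin, the product of B2M, and it carries a short peptide from inside the cell to the surface, where CD8 T cells and natural killer cells read it. The peptides are cut by the proteasome, whose immune form contains PSMB8, PSMB9 and PSMB10, and are carried to the heavy chain by the TAP transporter. Interferon-gamma, which interleukin-12 and interleukin-2 induce in T cells and natural killer cells, raises transcription of this machinery, partly through the class I transactivator NLRC5. DLA88 is the highly polymorphic classical class I gene of the dog, DLA-12 and DLA-64 are less polymorphic class I genes of the same region, and DLA-79 is a divergent class I gene. The RefSeq gene table of the dog assembly UU_Cfam_GSD_1.0 lists DLA88 and DLA-64 close to each other and DLA-79 on another chromosome. The transcript named for the DLA-12 probe is not in that table, so 3 of the 4 members were matched. The heavy chains are close relatives and vary between dogs, and whether a probe also captures a relative, or misses an allele, was not tested. Counts of different probes are not on one scale, so levels are compared between tumours and never between genes.

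Total counts of endogenous probes ranged from 1200521 to 1752729 in 13 tumours, were 1016527 and 1089862 in another 2, and fell well below that in replicate C of the day 2 group (126997) and replicate D of the 2-dose group (205118). Counts were scaled by the geometric mean of the 20 housekeeping probes, which ran from 489 to 686 in untreated tumours, from 526 to 709 at day 8 after 1 dose, from 61.9 to 281 at day 2, and from 55.1 to 643 after 2 doses. This scaling raised the median probe by 1.23 (log2) at day 2 and by 0.63 after 2 doses, whereas trimmed-mean scaling (TMM) placed it at 0.25 and −0.05. Changes of the heavy chains are therefore also given relative to the median probe. The sarcoma label was set against its markers: all 6 mesenchymal probes (VIM, COL1A1, COL3A1, FN1, THY1 and PDGFRA) were above background in at least 1 tumour of each group, and their summed normalized count lay between 109890 and 570590 in all tumours. Of 6 Schwann cell and neural markers 3 were on the panel. SOX10 was above background in 4 of 7 untreated tumours and in 0 of the treated ones, while S100B was above it in 6 of 7 untreated tumours and in 3 of 3 at day 2, 3 of 3 at day 8 after 1 dose and 3 of 4 after 2 doses. NCAM1 was above background in 7 of 7, 0 of 3, 3 of 3 and 2 of 4 in the same order. These detection counts come from libraries of unequal depth. Median normalized SOX10 counts were 19.7, 43.2, 18.5 and 28.3 in that order, and its change was called in no treated group against untreated.

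In untreated tumours the heavy chains were already present and varied widely from dog to dog. DLA88 had normalized counts from 777 to 5143 with a median of 4220 (mean 3148 ± 1934, SD, n = 7). DLA-12 ranged from 175 to 1577 with a median of 338 (mean 560 ± 522, SD, n = 7). DLA-64 ranged from 151 to 989 with a median of 418 (mean 413 ± 301, SD, n = 7). DLA-79 ranged from 31.0 to 452 with a median of 170 (mean 191 ± 147, SD, n = 7), and its lowest raw count, 44 in replicate A, was 2.46 times that tumour's background limit.

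The members did not share one order of tumours. Replicate B, a peripheral nerve sheath tumour, had the highest DLA88, DLA-12 and DLA-64 of the untreated group, but its DLA-79 count of 120 was the third lowest. Replicate F, another peripheral nerve sheath tumour, had the highest DLA-79 (452) and the second lowest DLA-12 (214). Across the 7 untreated tumours, the Pearson correlation of log2 normalized counts was 0.90 between DLA88 and DLA-64 and −0.03 between DLA-12 and DLA-79. B2M had a correlation of 0.93 with DLA-64, 0.83 with DLA88, 0.79 with DLA-12 and 0.36 with DLA-79 over the same 7 tumours. These values share the scaling factor of each tumour and are given as a description.

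Among untreated tumours, none of the 4 heavy chains passed the test between the perivascular wall and the peripheral nerve sheath type (edgeR quasi-likelihood test with Benjamini-Hochberg adjustment over 676 probes, adjusted p = 0.998 for each). Of all probes, 0% were called higher and 0% lower here, 27 had an unadjusted p under 0.05, and DESeq2 called 4. DLA-64 had counts of 151, 163, 418 and 450 in the 4 perivascular wall tumours and of 170, 553 and 989 in the 3 nerve sheath tumours, and these ranges overlap. Its log2 difference of −0.95 (perivascular wall minus nerve sheath) had a 95% interval from −2.48 to 0.59. The log2 differences of DLA88 (−0.19), DLA-12 (−0.43) and DLA-79 (−0.93) had similarly wide intervals, so a difference of several fold in either direction was not detectable with these tumours for DLA88 and DLA-12.

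**Figure D1:**
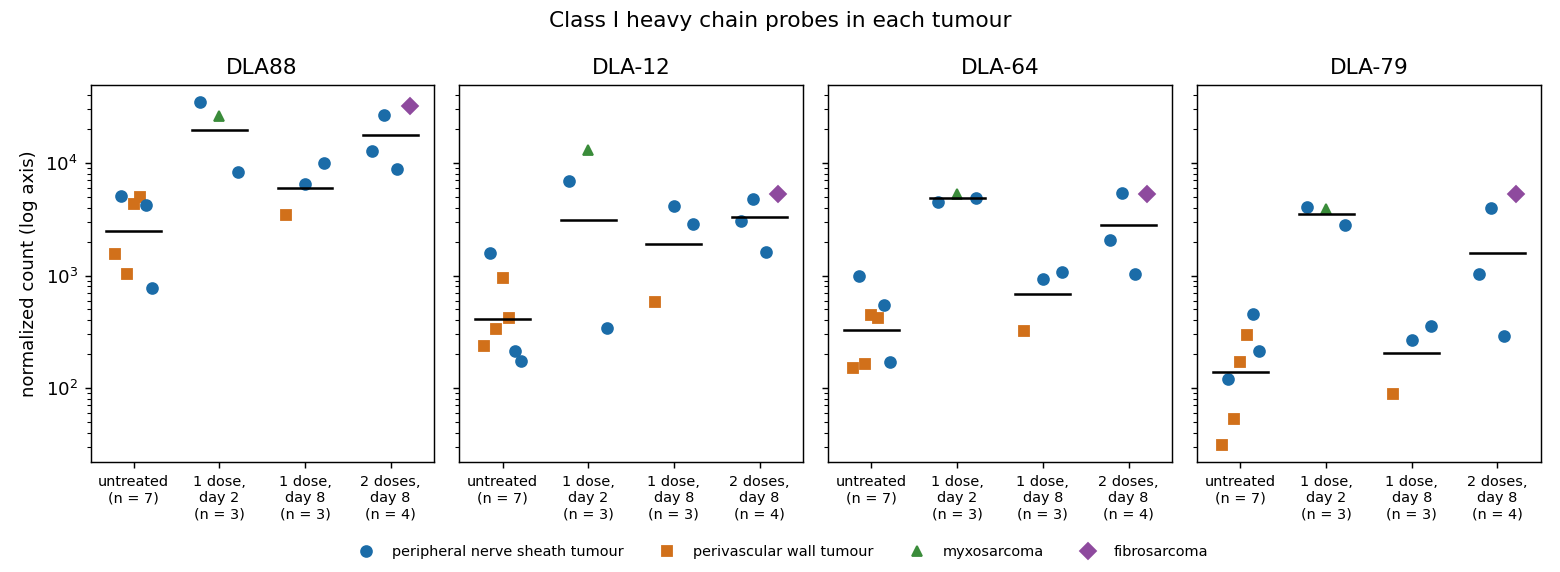
Normalized count (log axis) of each heavy chain probe in each of the 17 tumours, by group. Symbols give the tumour type and the bar is the geometric mean of the group. The 3 day 2 tumours lie above all untreated tumours for DLA88, DLA-64 and DLA-79, while for DLA-12 one of them, replicate C at 344, lies among the untreated.

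At day 2 after 1 dose, all 4 heavy chains were higher than in untreated tumours. DLA88 rose 7.33-fold, DLA-12 12.1-fold, DLA-64 11.9-fold and DLA-79, the divergent class I gene, 18.9-fold. The share of all tested probes called higher in this comparison was 47.8%, and 2.62% were called lower, so a called rise was common on this panel. That is 346 probes higher and 19 lower, and with TMM scaling it was 170 and 114. In the order of log2 changes, DLA-79 was at place 19, DLA-12 at 43, DLA-64 at 46 and DLA88 at 85 of 724.

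DLA88 had normalized counts of 34843, 26004 and 8364 in replicates A, B and C (mean 23070 ± 13481, SD, n = 3). All 3 lay above the highest untreated tumour, and replicate C, the low-count library, was the lowest of them. The log2 change was 2.87 ± 0.62 (SE, adjusted p = 0.00169). DLA-64 had counts of 4502, 5346 and 4889 (mean 4912 ± 422, SD, n = 3). The 3 tumours were close together and several times above the highest untreated value. Its log2 change was 3.57 ± 0.59 (SE, adjusted p = 0.000304).

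DLA-79 had counts of 4058, 3891 and 2843 (mean 3597 ± 659, SD, n = 3), all far above the untreated range. Its log2 change was 4.24 ± 0.76 (SE, adjusted p = 0.000476). DLA-12 had counts of 6933, 13041 and 344 (mean 6773 ± 6350, SD, n = 3). Replicates A and B lay above every untreated tumour, whereas replicate C lay at the untreated median, so the groups overlap. Its log2 change was 3.60 ± 0.82 (SE, adjusted p = 0.00247). In replicate C the raw DLA-12 count was 44, which is 2.11 times its background limit, while DLA-64 stood at 30.0 times and DLA-79 at 17.5 times the limit in the same tumour. The cause of this single low DLA-12 count was not tested. When both low-count libraries were left out, the log2 changes were 3.27 for DLA88, 4.16 for DLA-12, 3.57 for DLA-64 and 4.38 for DLA-79, and all 4 calls stood. Without day 2 replicate B the DLA-12 change was 2.70, and its call stood.

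Relative to the median probe, the day 2 rises were 1.64 for DLA88, 2.37 for DLA-12, 2.34 for DLA-64 and 3.01 for DLA-79 (log2). With TMM scaling they were 1.72, 2.46, 2.44 and 3.06. A change of scaling shifts all probes of a comparison by nearly the same amount, so these values are close by construction. The direction was upward for all 4 members under each scaling tried. Scaled on the spiked-in positive controls, which stood at 354, 1955 and 2235 in replicates A, B and C, DLA-79 alone kept a call. Tumour type could not be separated fully from treatment. With type as a covariate DLA-64 and DLA-79 kept their calls (log2 changes of 2.93 and 3.59) and DLA88 and DLA-12 lost theirs (2.51 and 2.16). With 2 treated and 3 untreated nerve sheath tumours alone none of the 4 was called. Their log2 changes there were 2.68, 2.48, 3.04 and 3.72 in the order DLA88, DLA-12, DLA-64 and DLA-79. Over all probes, 365 were called in the main fit, 34 with positive controls, 180 with the covariate and 37 of 705 with nerve sheath tumours alone.

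**Figure D2:**
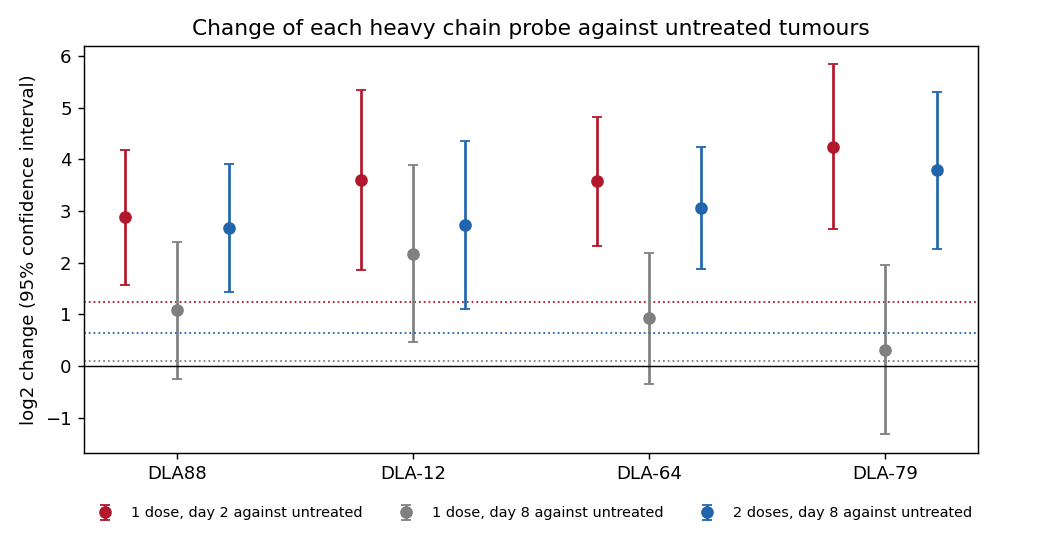
Log2 change of each heavy chain probe against the 7 untreated tumours for each treated group, with 95% confidence intervals. Dotted lines mark the median change of all 724 tested probes in the same colour. The day 2 intervals and the 2-dose intervals lie above 0 for all 4 genes, and the day 8 interval after 1 dose spans 0 for all but DLA-12.

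At day 8 after 1 dose, no heavy chain passed the test against untreated tumours. The log2 changes were 1.08 for DLA88, 2.17 for DLA-12, 0.92 for DLA-64 and 0.31 for DLA-79, each with an adjusted p of 0.984. No probe of the panel was called here (0% higher and 0% lower by edgeR). At an unadjusted p under 0.05 there were 33 probes, DESeq2 called 1 with housekeeping size factors and 0 with its own, and limma called 0.

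DLA-12 stood nearest to a call. Its counts were 581, 4126 and 2873 in replicates A, B and C (mean 2526 ± 1798, SD, n = 3). The nerve sheath tumours B and C lay above all untreated tumours and the perivascular wall tumour A lay inside their range. The change was the second highest of the 724 probes and had a 95% interval from 0.46 to 3.89, an unadjusted p of 0.0161 and an adjusted p between 0.286 and 0.999 over 31 alternative settings.

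DLA88 had counts of 3421, 6463 and 10050 (mean 6645 ± 3318, SD, n = 3), of which replicates B and C were above the untreated range. DLA-64 had counts of 324, 934 and 1085 (mean 781 ± 403, SD, n = 3), of which only replicate C was above it. DLA-79 had counts of 89.4, 267 and 353 (mean 236 ± 134, SD, n = 3), all inside the untreated range. Replicate A was the lowest of the 3 day 8 tumours for each heavy chain. The 95% interval of the log2 change reached 2.41 for DLA88, 2.19 for DLA-64 and 1.94 for DLA-79, so a rise of severalfold at day 8 cannot be told from none with these tumours.

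After 2 doses, with removal 2 days after the second, all 4 heavy chains were again higher than in untreated tumours, against 33.3% of probes called higher and 0.414% called lower (241 and 3 probes, and 156 and 36 with TMM scaling). The rise was 6.38-fold for DLA88, 6.60-fold for DLA-12, 8.32-fold for DLA-64 and 13.8-fold for DLA-79. This comparison shares its 7 untreated tumours with the day 2 comparison.

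DLA88 had counts of 12769, 26849, 8822 and 31949 in replicates A to D (mean 20097 ± 11059, SD, n = 4). All 4 lay above the untreated range, and the log2 change was 2.67 ± 0.59 (SE, adjusted p = 0.00191). DLA-12 had counts of 3063, 4814, 1612 and 5285 (mean 3694 ± 1685, SD, n = 4). The lowest, replicate C, was just above the highest untreated tumour, and the log2 change was 2.72 ± 0.77 (SE, adjusted p = 0.0114).

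DLA-64 had counts of 2058, 5407, 1029 and 5268 (mean 3440 ± 2231, SD, n = 4). Replicate C was again just above the untreated maximum of 989, and the log2 change was 3.06 ± 0.56 (SE, adjusted p = 0.000535). DLA-79 had counts of 1032, 3959, 289 and 5259 (mean 2635 ± 2360, SD, n = 4). Replicate C lay inside the untreated range, so DLA-79 is the member whose groups overlap here, and its log2 change was 3.79 ± 0.72 (SE, adjusted p = 0.00069).

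Within the 2-dose group, replicates A and C were lower than B and D for each of the 4 heavy chains. Their housekeeping levels were 643 and 608, against 297 in replicate B and 55.1 in replicate D, so the scaling factor moved together with the result, and its part in that spread was not tested. Raw DLA88 counts, before any scaling, were 16982, 16465, 11096 and 3639 in A to D, another order. Scaled by total endogenous counts instead, A and C were again below B and D. DLA-79 made up 0.0783% and 0.0250% of endogenous counts in A and C and 0.239% and 0.292% in B and D, and DLA88 made up 0.969% and 0.761% in A and C and 1.62% and 1.77% in B and D.

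Relative to the median probe the 2-dose rises were 2.04, 2.09, 2.43 and 3.16 (log2) for DLA88, DLA-12, DLA-64 and DLA-79. With TMM scaling they were 2.03, 2.12, 2.36 and 2.93, again close by construction. With tumour type as a covariate none of the 4 was called, at log2 changes of 2.09, 1.96, 2.20 and 2.62 in the same order. With nerve sheath tumours alone (3 treated and 3 untreated) none was called either, at 2.26, 2.27, 2.31 and 2.75. Over all probes, 244 were called in the main fit, 56 with the covariate and 0 of 705 with nerve sheath tumours alone. The loss of calls was therefore not particular to the heavy chains. With the replicate letter as a block all 4 kept their calls, at 2.79, 2.48, 3.09 and 4.63.

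**Figure D3:**
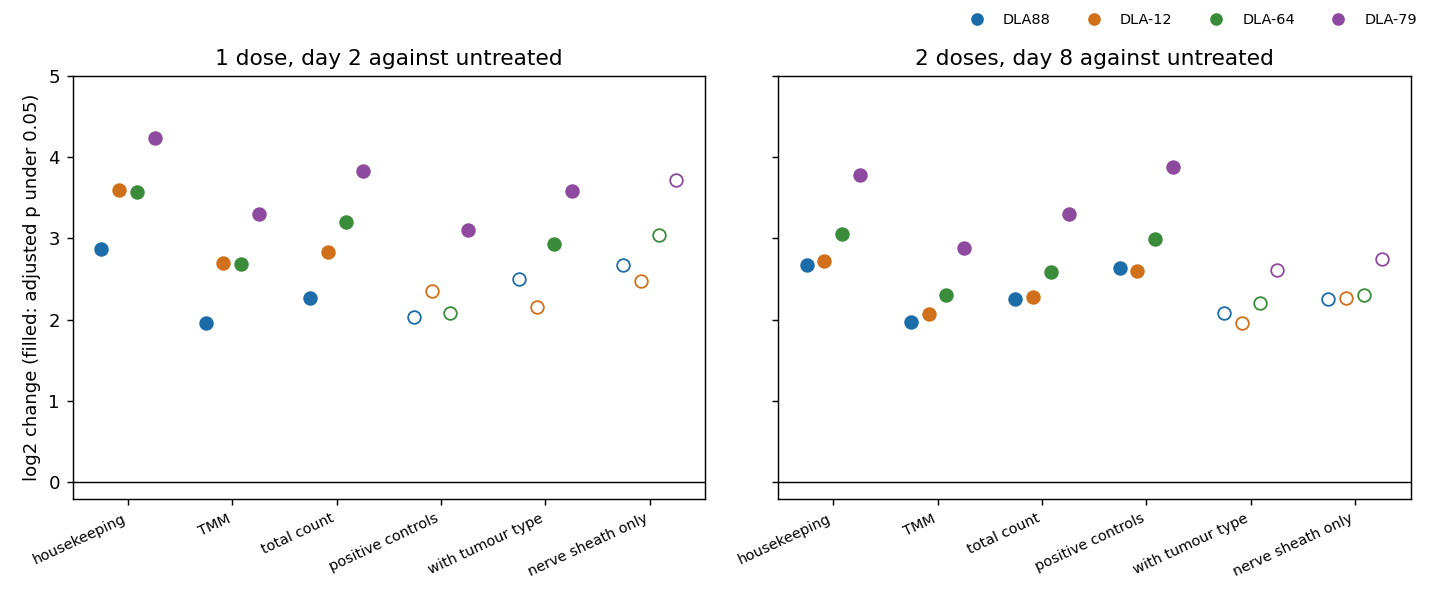
Log2 change of the 4 heavy chains against untreated tumours at day 2 after 1 dose and after 2 doses, under 4 scalings, with tumour type as a covariate, and with nerve sheath tumours alone. Filled points had an adjusted p under 0.05. All points lie above 0, and those with tumour type taken into account are mostly open. With nerve sheath tumours alone, 37 of 705 probes of the panel were called at day 2 and 0 after 2 doses.

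From day 2 to day 8 after 1 dose, DLA-64 and DLA-79 were lower at day 8, by 6.29-fold and 15.2-fold, while DLA88 and DLA-12 did not pass the test. In this comparison 19.2% of probes were called lower and 0.414% higher (139 and 3 probes, and 54 and 27 with TMM scaling). DLA-64 changed by −2.65 ± 0.78 (log2, SE, adjusted p = 0.0339) and DLA-79 by −3.93 ± 1.04 (SE, adjusted p = 0.0223), and for both genes the 3 day 8 tumours lay below the 3 day 2 tumours. DLA88 had a log2 change of −1.80 with a 95% interval from −3.48 to −0.11 (adjusted p = 0.1001, and 0.0458 by DESeq2 with housekeeping size factors, the only alternative that called it), and its day 8 replicate C (10050) exceeded its day 2 replicate C (8364). DLA-12 had a log2 change of −1.42 with an interval from −3.62 to 0.77 (adjusted p = 0.291).

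Whether DLA-64 and DLA-79 fell more than DLA88 and DLA-12 was not tested between these groups. Without day 8 replicate A, B or C, 0 of the 4 heavy chains were called. Over all probes, 0, 0 and 1 were called in these fits, against 142 in the main fit, so the loss was not particular to the heavy chains. When leaving out 1 tumour, the log2 change stayed between −2.97 and −2.28 for DLA-64 and between −4.34 and −3.54 for DLA-79. DLA-64 also lost its call without day 2 replicate B or C, where 97 and 76 probes were called.

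The second dose could be set against the first at the same interval of 2 days, and none of the 4 heavy chains passed that test. The log2 differences (2 doses minus 1 dose) were −0.20 for DLA88, −0.88 for DLA-12, −0.51 for DLA-64 and −0.45 for DLA-79. Their 95% intervals ran from −1.73 to 1.33, from −2.87 to 1.12, from −1.96 to 0.93 and from −2.27 to 1.36, which leaves room for a difference of severalfold in either direction for DLA88 and DLA-79. edgeR called 0% of probes higher and 0% lower here, with 88 probes at an unadjusted p under 0.05, none of them a heavy chain, while DESeq2 called 28 probes with housekeeping size factors and 6 with its own.

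Both groups removed on day 8 could also be compared. DLA-79 was 11.1-fold higher after 2 doses than after 1 (log2 difference 3.48 ± 0.99, SE, adjusted p = 0.0392), the only 1 of the 4 called, against 9.39% of probes called higher and 0% lower (68 and 0 probes, and 48 and 8 with TMM scaling). Replicate C of the 2-dose group (289) lay within the range of the 1-dose tumours, so the groups overlap. DLA-64 differed by 2.14 (adjusted p = 0.0662), DLA88 by 1.60 (adjusted p = 0.156) and DLA-12 by 0.55 (adjusted p = 0.738). The DLA-79 call was lost without any single day 8 tumour of the 1-dose group, where 0 probes of the panel were called. It was also lost without day 2 replicate A or B (47 and 50 probes called), without 2-dose replicate B or D (11 and 13) and without untreated replicate E (49). The day 2 and untreated tumours enter this comparison through the shared estimate of spread. The call was also lost with the replicate letter as a block (log2 2.61, adjusted p = 0.117), with tumour type as a covariate, with nerve sheath tumours alone and without the low-count libraries. In each of these fits 0 probes of the panel were called. With limma and with background subtraction, which called 16 and 41 probes, the DLA-79 call was lost too. It stood in 17 of 31 alternative settings. Without 2-dose replicate A or C, and by DESeq2 with either size factor, DLA-64 was called as well.

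By arithmetic group mean, all 4 heavy chains had the same order: untreated lowest, then day 8 after 1 dose, then 2 doses, then day 2 after 1 dose. By geometric mean, the bar in the plot of levels, the last places swap for DLA-12, whose mean log2 level was 11.71 after 2 doses and 11.62 at day 2. Of the neighbours in that order, only day 8 after 1 dose and 2 doses differed by the test, and only for DLA-79. Untreated and day 8, and 2 doses and day 2, were not separated for any member.

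The ratio of 2 probes within a tumour does not depend on the scaling factor, and it shows whether the members moved by unequal amounts. For the 6 pairs of heavy chains and for each heavy chain over B2M, the mean log2 ratio of raw counts in each treated group was set against untreated tumours by an exact two-sided permutation test. Of the 30 tests, 0 had an adjusted p under 0.05 (the lowest was 0.655) and 0 had an unadjusted p under 0.05. The smallest p the design allows is 0.00833 with 3 treated tumours and 0.00303 with 4. Adjusted over 30 tests, a single ratio at that smallest p would not have been called. The absence of calls therefore cannot show that the members moved by equal amounts.

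DLA88 and B2M moved by similar amounts in these data. The DLA88 over B2M log2 ratio was −2.82 ± 0.66 in untreated tumours (SD, n = 7), −2.96 ± 0.38 at day 2 (n = 3), −2.57 ± 0.43 at day 8 after 1 dose (n = 3) and −2.71 ± 0.32 after 2 doses (n = 4). DLA-64 over B2M was −5.73 ± 0.37 in untreated tumours and −5.37 ± 0.17 after 2 doses. At day 2 it was −6.05, −5.54 and −3.31 in replicates A, B and C, so replicate C stood apart. In that tumour B2M (48429) and DLA88 were below the other day 2 tumours while DLA-64 was not.

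The 3 lowest unadjusted p-values concerned DLA-12 and DLA-79. DLA-12 over B2M was −5.05, −3.68 and −4.00 in day 8 replicates A, B and C after 1 dose, against −6.57 to −4.36 (median −5.50) in untreated tumours, and 2 of the 3 exceeded every untreated tumour. The difference was 1.18 (log2, exact permutation p = 0.0583, adjusted p = 0.655). DLA-79 over DLA88 was −3.10, −2.74 and −1.56 at day 2, against −5.65 to −1.88 (median −4.28) in untreated tumours, a difference of 1.70 (exact permutation p = 0.0667, adjusted p = 0.655). DLA-64 over DLA-12 at day 8 after 1 dose differed by −1.16 (exact permutation p = 0.0833, adjusted p = 0.655), and 2 of the 3 tumours lay below all untreated ones. A ratio shows unequal change and does not say which of the 2 genes moved.

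**Figure D4:**
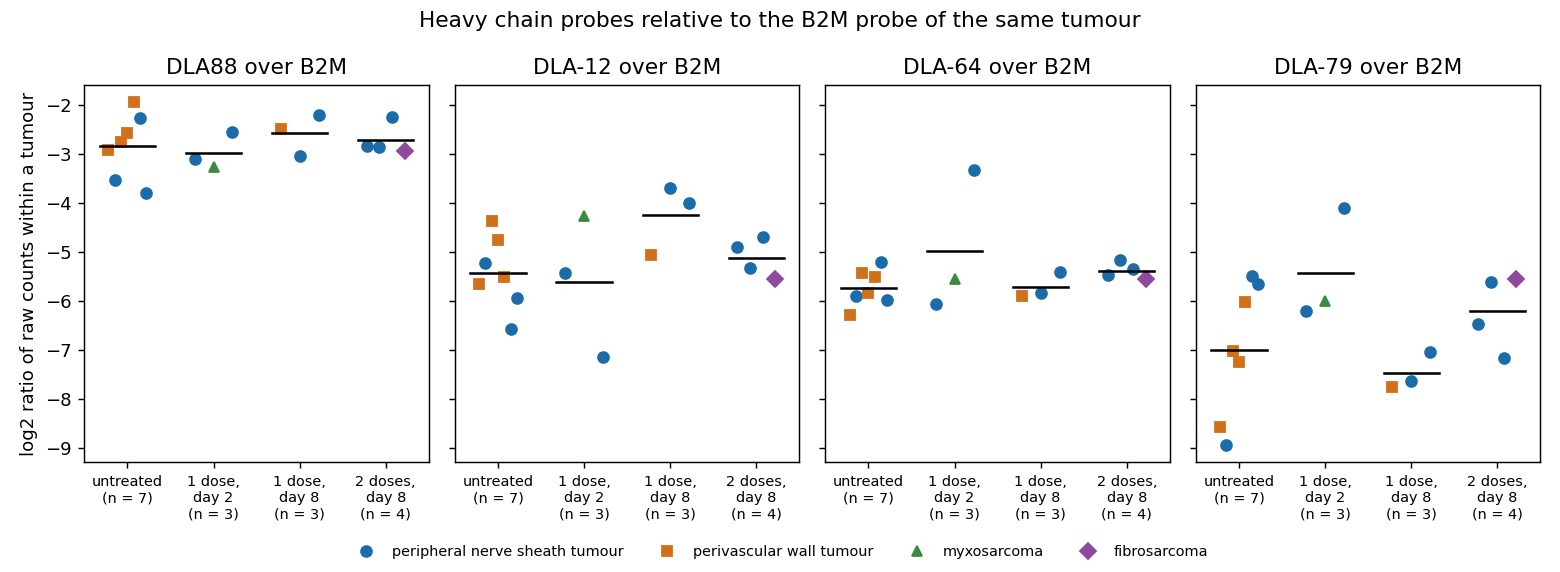
Log2 ratio of each heavy chain's raw count to the B2M raw count of the same tumour, by group, with symbols for tumour type and a bar at the group mean. DLA88 over B2M stays between −3.78 and −1.93 in all tumours, while DLA-79 over B2M spans −8.94 to −4.09.

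Other genes of the class I pathway were taken from a list of 16, of which 7 were on the panel. All 7 were called higher at day 2 and all 7 after 2 doses, beside 47.8% and 33.3% of all probes. Their median log2 changes were 3.96 and 3.19, beside 1.23 and 0.63 for all probes. At day 8 after 1 dose 0 of 7 were called, where 0% of all probes were called. B2M rose by 3.18 at day 2 and 2.70 after 2 doses (adjusted p = 0.00144 and 0.00308), close to DLA88. The transporter subunit TAP1 rose by 3.77 and 2.98, and the immunoproteasome subunit PSMB9 by 3.96 and 3.62. NLRC5, the class I transactivator, had normalized counts from 43.3 to 165 in untreated tumours, from 1316 to 3101 at day 2, from 88.7 to 106 at day 8 after 1 dose and from 184 to 1797 after 2 doses. Its log2 change was 4.24 at day 2 (adjusted p = 4.61e-05) and −0.02 at day 8 (adjusted p = 0.995). From day 2 to day 8 after 1 dose, 4 of the 7 fell (TAP1, PSMB8, PSMB10 and NLRC5), beside 19.2% of all probes called lower. B2M (−2.34, adjusted p = 0.0649) did not pass, as DLA88 did not.

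Among genes of interferon-gamma signalling, IFNG, the kinase JAK2, the transcription factor IRF1 and the class II transactivator CIITA were called higher at day 2, and IFNG, IRF1 and CIITA after 2 doses. IFNGR1 and JAK1 were called in neither comparison. The shares of all probes called higher were 47.8% and 33.3%. At day 8 after 1 dose none of these 6 was called, and neither was any other probe of the panel. IFNG, the cytokine itself, was not above background in any untreated tumour or any day 8 tumour after 1 dose. It therefore entered the tests only through the groups where it was high. Its normalized counts lay between 164 and 726 at day 2 and between 23.9 and 1756 after 2 doses. Of 7 genes of receptors that read class I molecules or relatives of them, 6 were on the panel, and 4 were higher at day 2 (CD8A, KLRD1, KLRA1 and CD160) and 3 after 2 doses (CD8A, KLRD1 and CD160), beside the 47.8% and 33.3% of all probes. CD8B, with log2 changes of 1.30 and 1.04, and KLRK1, with 0.91 and 0.06, were called in neither comparison. At day 2, KLRA1 and CD160 were each above background in 1 of 3 tumours, and KLRA1 had counts of 43.2, 58.6 and 437. In untreated tumours CD160 was above background in 0 of 7. CD8A, a chain of the T cell co-receptor for class I, had median counts of 23.6 in untreated tumours, 242 at day 2, 83.6 at day 8 after 1 dose and 364 after 2 doses.

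Markers of white blood cells as a whole, T cells and natural killer cells were higher in the same groups as the heavy chains. Macrophage and B cell markers followed less closely. The counts of called markers stand beside 47.8% of all probes called higher at day 2 and 33.3% after 2 doses. The summed normalized count of PTPRC, ITGB2 and LCP1 ran from 355 to 1731 in untreated tumours, from 5873 to 11690 at day 2, from 1070 to 1341 at day 8 after 1 dose and from 1752 to 12941 after 2 doses, and all 3 were called higher at day 2 and after 2 doses. For 6 T cell markers the sums ran from 94.7 to 482, from 1054 to 1602, from 317 to 524 and from 799 to 3170 in the same order of groups, with 6 of 6 called higher at day 2 and after 2 doses. At day 2, CD6 was above background in 1 of 3 tumours, and CD3D, CD3E and CD3G in 2 of 3. For 4 natural killer cell markers the sums ran from 71.2 to 158, from 370 to 1078, from 138 to 211 and from 248 to 1089, with 4 and 3 of 4 called higher (KLRD1 is in this list and in that of the receptors). NCR1, 1 of the 4, was above background in 0 of 7, 3 of 3, 0 of 3 and 2 of 4 tumours in that order. It therefore entered the tests only through the groups where it was high, and its calls are no separate support. For 5 macrophage markers the sums ran from 1310 to 9130, from 3413 to 8408, from 4668 to 5235 and from 3664 to 10303, so the groups overlap. Of these, 2 and 1 of 5 were called higher, no larger a share than that of all probes. Their median log2 change was 1.15 at day 2 and 1.02 after 2 doses, beside 1.23 and 0.63 for all probes. For 3 tested B cell markers the sums ran from 27.2 to 134, from 207 to 456, from 58.7 to 143 and from 82.7 to 316. Of these, 3 and 1 of 3 were called higher, and the 2-dose share was that of all probes. They lay near the background limit. At day 2, MS4A1 and PAX5 were each above it in 1 of 3 tumours and CD79A in 2 of 3. After 2 doses, MS4A1 was above it in 0 of 4, PAX5 in 1 of 4 and CD79A in 3 of 4. The mesenchymal sum was 272730 to 570590 in untreated tumours and 166710 to 249410 at day 2, where 2 of 6 probes were called lower, beside 2.62% of all probes. The part of these cells in the heavy chain counts was not tested, and in tissue RNA more cells of a type and more RNA per cell cannot be told apart.

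The probes whose log2 normalized counts followed each heavy chain most closely over the 17 tumours were found by Pearson correlation, as a description. The points share the treatment groups and the scaling factors. For DLA88 the 5 closest were PSMB9 (r = 0.97), the class II chain DLA-DRA, the leukocyte phosphatase PTPRC, the class II chain HLA-DRB1 and the selectin ligand SELPLG, with r from 0.96 to 0.97, and within the 7 untreated tumours r was 0.85 to 0.97. For DLA-64 they were LY86, SLAMF6, TAP1, IFGGC1 and PSMB8, with r of 0.97 each, and r of 0.87 to 0.96 in untreated tumours. DLA-79 was closest to the class II transactivator CIITA (r = 0.96), the class II gene DLA-DOB, CARD9, the class II invariant chain CD74 and HLA-DRB1, and r was 0.79 to 0.89 in untreated tumours. DLA-12 had looser neighbours, IRF8, a transcription factor of myeloid cells, at 0.93, the PD-1 ligand PDCD1LG2 at 0.92, and TYROBP, CTSS and TLR1, with r of 0.77 to 0.92 in untreated tumours. Over all 17 tumours, DLA-12 and DLA-79 were the least alike of the heavy chain pairs (r = 0.64), and DLA88 and DLA-64 the most alike (r = 0.94).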

How the data were processed

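Raw barcode counts per probe, 1 file per tumour, are the deposited counts. The authors measured RNA from formalin-fixed tissue on the Canine IO panel and used nSolver, per the labels. Neither its version nor its normalization is given in the sources used here. The deposited normalized table (signal per probe, values as the authors deposited them) served as an alternative. A second normalized table with 17 columns that match no sample label was not used.

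Counts were scaled by the geometric mean of 20 housekeeping probes. Listed levels are raw counts times the mean over tumours of that geometric mean divided by the tumour's own, and log2 levels add 1. Probes above background (mean of 8 negative controls plus 2 SD) in at least 3 tumours were tested, and 56 probes were removed. One robust quasi-likelihood fit (edgeR 4.0.16, R 4.3.3) covered the 4 groups. Benjamini-Hochberg adjustment ran over 724 probes, with calls at an adjusted p under 0.05. Each SE was worked back from the test. The 2 untreated tumour types were fitted alone, over 676 probes. Ratios were tested by exact permutation. The tumours come from different dogs. The deviations of same-letter 2-dose and untreated tumours correlated at 0.320, 0.198, 0.277 and 0.380 for A to D. Different-letter pairs of these groups ran from −0.460 to 0.472, so these values do not show that the letters pair tumours. Values with the replicate letter as a block are given only as an alternative. In the other comparisons not every same-letter pair was above 0.1. Alternatives used DESeq2 1.42.0 and limma 3.58.1, and the fit was tested on simulated data. Interval and precision statements cover the spread between tumours.

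All 4 genes are named. The gene lists, the markers and the 5 probes per gene by correlation follow written rules. The genes and lists were chosen with earlier results of these data known. Some listed genes are not reported here. No sequence is shown.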

Additional observations from a re-analysis of the deposited data

Results flagged for a closer look

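Dixon's test was run on the 4 heavy chains and the 10 ratios in the untreated and 2-dose groups, 28 sets of values, and chance alone picks out about 1 in 20 such sets. In 1 set a tumour lay far from the others: the DLA88 over B2M log2 ratio of 2-dose replicate C was −2.23, and the other 3 tumours of that group lay between −2.94 and −2.83.

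Between treated groups, 3 differences passed the test of the difference itself. DLA-64 changed by −2.65 (log2) and DLA-79 by −3.93 from day 2 to day 8 after 1 dose, and DLA-79 differed by 3.48 between 2 doses and 1 dose at day 8.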

How the results depend on the processing

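The 4 heavy chains stayed called against untreated tumours, at day 2 and after 2 doses, whichever single tumour was left out, and under TMM, median-of-ratios and total-count scaling, DESeq2, limma, no filter, background subtraction, without both low-count libraries, and with 12 housekeeping probes above background everywhere (chosen after seeing the data). The exceptions were positive control scaling at day 2 (1 called), tumour type as a covariate (2 at day 2, 0 after 2 doses) and nerve sheath tumours alone (0 and 0). Nerve sheath tumours alone leave fewer tumours. Over all probes, positive controls called 34 at day 2, the covariate 180 and 56, and nerve sheath tumours alone 37 and 0. The day 8 against day 2 count of 2 became 0 with positive controls and with nerve sheath tumours alone, where 5 and 0 probes of the panel were called. It became 1 with the covariate or without the low-count libraries (80 and 92 probes), and ran from 0 to 2 when leaving out 1 tumour. DESeq2 with housekeeping size factors called 3, DLA88 among them (285 probes). The 2-dose against 1-dose count of 1 at day 8 became 2 with DESeq2 under either size factor. It became 0 with limma and with background subtraction, where 16 and 41 probes of the panel were called. It was also 0 without the low-count libraries, with the covariate, with nerve sheath tumours alone and with the replicate block. In each of those fits 0 probes of the panel were called. Leaving out 1 tumour gave 0 to 2 heavy chains. The cause of these changes was not tested. The replicate block changed no other call of the heavy chains. Over all comparisons, 8 of 19 same-letter pairs of tumours had a correlation of deviations over 0.1. Different-letter pairs reached 0.472, so the letters were not shown to pair tumours. No ratio was called under any alternative, limma included. In the permutation tests a single ratio at its smallest possible p could not be called. With nerve sheath tumours alone, even an unadjusted p under 0.05 was out of reach.

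Sign changes touched values that were not called. DLA-79 at day 8 after 1 dose was −0.44 with positive controls, −0.071 with the covariate, and −0.10 to 0.70 when leaving out 1 tumour. Between 2 doses and 1 dose at 2 days, DLA88 was 0.017 with TMM, positive controls gave 0.60, 0.24, 0.91 and 0.77 for DLA88, DLA-12, DLA-64 and DLA-79, limma gave 0.22 for DLA-12, and leaving out 1 tumour gave −0.60 to 0.23 for DLA88 and −1.44 to 0.018 for DLA-12. DLA-12 between 2 doses and 1 dose at day 8 was −0.031 with TMM, −0.030 with median-of-ratios, −0.030 with DESeq2's own factors and −0.15 in nerve sheath tumours alone. Between untreated types, DLA-12 was 0.12 with limma, and leaving out 1 tumour gave −0.98 to 1.33, and −0.66 to 0.25 for DLA88. DLA-12 over B2M at day 2 was 0.58 without the low-count libraries and −0.86 to 0.58 when leaving out 1 tumour.

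Over all probes, calls against untreated tumours ranged from 25 to 397 higher at day 2 (346 in the report) and from 0 to 163 lower (19), and after 2 doses from 0 to 271 higher (241) and from 0 to 112 lower (3). Leaving out 2-dose replicate B gave 151 higher. From day 2 to day 8 they ranged from 0 to 268 lower (139) and from 0 to 74 higher (3), and between 2 doses and 1 dose at day 8 from 0 to 197 higher (68) and from 0 to 20 lower (0), with 0 of either comparison's main direction without day 8 replicate A. Of the 5 probes nearest each gene, TMM kept 4, 5, 5 and 4 and Spearman's rho kept 4, 3, 0 and 0 for DLA88, DLA-12, DLA-64 and DLA-79.

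Precision is limited by 3 or 4 tumours per treated group. Every member was above background in all 17 tumours, and the lowest margins were 2.11 times the limit for DLA-12 and 2.46 times for DLA-79.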
